A study of Homo sapiens with 24 samples.

Results

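HAR123 is a human accelerated region, a sequence conserved in mammals that changed quickly in the human lineage, and it lies in an intron of SMG6 on the short arm of chromosome 17. The 10 genes described here are RPA1, RTN4RL1, DPH1, HIC1, SMG6, SRR, TSR1, SGSM2, MNT and PAFAH1B1, all on chromosome 17 around that intron. They were chosen by position and symbol from 61551 genes counted, and all 10 were found. In GRCh38 they span 855.9 kb, from the start of RPA1 to the end of PAFAH1B1, and 38 further annotated genes lie wholly in this interval.

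RNA was sequenced from H9 cells, an established human embryonic stem cell (hESC) line, of 4 genotypes. The unedited cells carried the human HAR123 (hHAR123, labelled WT), the HAR123-KO cells had lost HAR123 on both alleles by CRISPR-Cas9 editing, and the cHAR123 and mHAR123 cells carried the chimpanzee or the mouse ortholog in its place. Each genotype was sequenced as untreated hESCs and as neuroectoderm, cultured for 5 days with the BMP antagonist Noggin at 500 ng/ml and the TGF-beta receptor inhibitor SB431542 at 10 uM. There were 3 libraries per genotype and stage, 24 in all, with totals of 21022748 to 35198684 counts. The study used a pair of clones per genotype. Which clone gave which library is not stated in the sources used here, and although the 3 libraries of a group are called biological replicates, whether each came from its own culture is not stated, so p-values measure the spread between these libraries, which may in part be technical. Clone and genotype cannot be told apart.

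The stages were checked with marker lists. The summed level of 7 pluripotency markers was 7145 to 7684 CPM (counts scaled by library size, here after TMM normalization) in hESCs and 1567 to 1795 in neuroectoderm, and that of 7 neuroectoderm markers was 31.97 to 47.9 and 554 to 1059. In HAR123-KO neuroectoderm the neuroectoderm sum was 554 to 565 CPM, against 963 to 972 in hHAR123. By the edgeR test described below (adjusted p under 0.01), 6 of these 7 markers were lower in HAR123-KO and 1 was higher. Over all genes 44.1% passed there. From hESCs to neuroectoderm of hHAR123, 6 of the 7 rose and 1 fell, where 80.1% of all genes passed. The sum of 5 neural crest markers was 1251 to 1265 CPM in HAR123-KO, 224 to 235 in cHAR123, 259 to 263 in mHAR123 and 97.5 to 103 in hHAR123, with each of the 5 above 3 counts in at least 1 library of every neuroectoderm group. In neuroectoderm, the sum of 5 mesoderm markers reached at most 3.52 CPM, that of 4 endoderm markers 0.302 CPM and that of 4 surface ectoderm markers 8.42 CPM. The part of the neural crest markers in the changes below was not tested, and in these bulk samples fewer cells of a type and less RNA per cell cannot be told apart.

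The labels of 6 libraries are in doubt. For neuroectoderm, the base means that the study lists for cHAR123 matched those computed here from the columns labelled mHAR123 within 1% for 117 of 117 genes, and those it lists for mHAR123 matched the columns labelled cHAR123 for 114 of 114. In hESCs the labels matched, for 87 of 87 and 143 of 143 genes. The neuroectoderm libraries are therefore named below by their column labels, and exchanging these labels exchanges the 2 sets of neuroectoderm values.

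The region is known from neurodevelopmental disease. PAFAH1B1 encodes LIS1, a regulator of cytoplasmic dynein that moves nuclei and neurons, and its loss causes lissencephaly, in which the cortex lacks its folds. HIC1 encodes a zinc finger repressor of transcription, and SMG6 the endonuclease that cuts transcripts with premature stop codons in nonsense-mediated decay. The other members have housekeeping or neural roles that are given with their values.

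RefSeq start-site windows (GRCh38.p14, 250 bases before to 50 bases after each start) were held for 8 of the 10 members, in 13 windows. HIC1 and RTN4RL1 were not among them. The SMG6 and SRR starts are shown because these members are transcribed away from each other. For 1 pair of RefSeq starts, of the 4 windows of SMG6 and 2 of SRR, there are 157 bases between the start of SMG6 at position 2303785 on the minus strand and that of SRR at position 2303943 on the plus strand. In the annotation used for counting SRR starts further out, at position 2303383, within the span of SMG6. The SMG6 window (chr17:2303736-2304035, minus strand) is printed with those 157 bases in capitals.
SMG6: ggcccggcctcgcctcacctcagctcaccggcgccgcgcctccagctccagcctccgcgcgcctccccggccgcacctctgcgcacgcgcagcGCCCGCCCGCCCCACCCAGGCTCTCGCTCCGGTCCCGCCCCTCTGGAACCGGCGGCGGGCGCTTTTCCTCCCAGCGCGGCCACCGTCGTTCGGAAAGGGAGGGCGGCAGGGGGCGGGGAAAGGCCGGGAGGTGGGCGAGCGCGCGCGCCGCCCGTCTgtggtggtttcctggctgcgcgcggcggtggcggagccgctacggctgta
The MNT and RPA1 windows are shown because MNT encodes a repressor that pairs with MAX and binds the E-box CACGTG, which both windows hold (capitals). The first is chr17:2401011-2401310 on the minus strand and the second chr17:1829755-1830054 on the plus strand.
MNT: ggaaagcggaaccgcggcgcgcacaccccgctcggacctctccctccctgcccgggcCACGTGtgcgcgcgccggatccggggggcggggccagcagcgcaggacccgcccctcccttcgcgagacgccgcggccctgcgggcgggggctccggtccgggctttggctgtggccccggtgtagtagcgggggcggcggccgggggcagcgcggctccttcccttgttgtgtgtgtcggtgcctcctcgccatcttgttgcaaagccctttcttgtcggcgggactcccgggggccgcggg
RPA1: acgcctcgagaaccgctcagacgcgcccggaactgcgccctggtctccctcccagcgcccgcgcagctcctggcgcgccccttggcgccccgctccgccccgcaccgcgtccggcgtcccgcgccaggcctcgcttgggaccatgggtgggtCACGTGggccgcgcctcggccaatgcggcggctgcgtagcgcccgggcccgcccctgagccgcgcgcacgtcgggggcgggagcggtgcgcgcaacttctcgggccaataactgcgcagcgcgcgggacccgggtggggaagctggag
CACGTG, which reads the same on both strands, was in 3 of the 13 windows of the members, in MNT, RPA1 and 1 of the 4 windows of SMG6, and in 7.26% of all 35116 windows. GGGCANCC, searched on both strands as the core that HIC1 is known to bind, was in 0 of the 13 and in 8.10% of all windows. The median GC content of the members' windows was 76.0%, against 58.7% over all windows, and the median number of CpG dinucleotides was 38, against 14. These are matches of letters and say nothing of binding.

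Levels per exon length were compared as RPKM scaled by TMM. In neuroectoderm RPA1, the large subunit of the single-strand DNA binding complex RPA, was highest, with a median over 12 libraries of 30.1 RPKM and a range of 27.9 to 31.4. PAFAH1B1 followed with 14.97 to 21.2 RPKM, then SMG6 with 12.5 to 16.2, TSR1, a factor of small ribosomal subunit assembly, with 11.7 to 13.8, and SGSM2, a RAB GTPase-activating protein, with 8.13 to 11.5. Among these 5 the ranges of PAFAH1B1 and SMG6 met, as did those of SMG6 and TSR1, whereas RPA1 lay above and SGSM2 below their neighbours in every library. Lower levels were those of MNT with 4.72 to 6.08 RPKM, RTN4RL1, a Nogo receptor homolog on neurons, with 4.63 to 7.17, DPH1, an enzyme of diphthamide synthesis, with 2.41 to 3.33, and SRR, the racemase that makes D-serine, with 1.92 to 2.41. The ranges of MNT and RTN4RL1 overlapped. HIC1 was the lowest member in every neuroectoderm library, at 0.0409 to 0.217 RPKM. In hESCs TSR1 was highest at 32.02 to 38.8 RPKM, RTN4RL1 was at 0.0185 to 0.104 RPKM and HIC1 at 0 to 0.0413 RPKM.

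**Figure D1:**
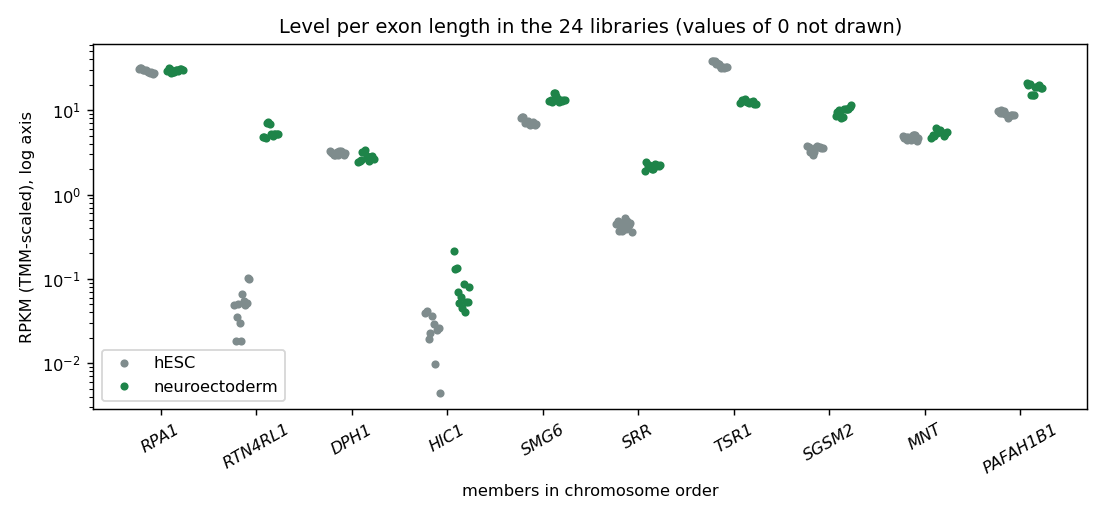
Level of each member per length of exon (TMM-scaled RPKM, log axis) in the 12 hESC libraries (grey) and the 12 neuroectoderm libraries (green), members in chromosome order. RTN4RL1 lies between 0.0185 and 0.104 in hESCs and between 4.63 and 7.17 in neuroectoderm, whereas HIC1 stays under 0.217 at both stages and 2 of its hESC values are 0 and not drawn.

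HIC1 (ENSG00000177374, chr17:2054154-2063241, plus strand) was lower in neuroectoderm of all 3 edited genotypes than in hHAR123. The unedited neuroectoderm gave 41, 28 and 28 counts, or 1.76, 1.06 and 1.09 CPM. The HAR123-KO libraries gave 0.560, 0.424 and 0.493 CPM. The 10, 18 and 8 counts of cHAR123 corresponded to 0.369, 0.698 and 0.331 CPM, and the 12, 11 and 16 counts of mHAR123 to 0.431, 0.426 and 0.654 CPM. None of the 9 edited libraries reached the lowest unedited one. Differences were tested with the quasi-likelihood test of edgeR, and every adjusted p is a Benjamini-Hochberg value over all genes tested. The log2 fold changes were -1.36 ± 0.30 (SE) in HAR123-KO, 2.57-fold lower (adjusted p = 0.000145), -1.46 ± 0.31 in cHAR123 (adjusted p = 0.000713) and -1.36 ± 0.31 in mHAR123 (adjusted p = 0.000925), with n = 3 in each group. These comparisons share the 3 hHAR123 libraries, of which the first is the highest. Without it the log2 fold changes were -1.20 (adjusted p = 0.0154) in cHAR123 and -1.10 (adjusted p = 0.0212) in mHAR123, so that neither passed 0.01, and HAR123-KO still passed. Without the third cHAR123 library the adjusted p was 0.0114. DESeq2 gave an adjusted p of 0.0174 for mHAR123 and none for cHAR123.

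No difference in HIC1 among the edited genotypes was detectable. The log2 difference of cHAR123 from HAR123-KO was -0.07 (95% interval -0.81 to 0.66, adjusted p = 0.894), that of mHAR123 from HAR123-KO 0.02 (-0.68 to 0.73, adjusted p = 0.968) and that of mHAR123 from cHAR123 0.10 (-0.64 to 0.83, adjusted p = 0.935). The depth of 8 to 18 counts per edited library leaves these intervals wide.

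In hESCs HIC1 was near the limit of counting and below the filter on low counts. There were 9, 10 and 5 counts in hHAR123, 4, 8 and 7 in HAR123-KO, 2, 5 and 6 in cHAR123, and 0, 0 and 1 in mHAR123. The single count in mHAR123 against 24 in hHAR123 is a ratio of 0.0452 by library totals, with an exact interval at 95% of 0.0011 to 0.277 that covers counting error only. With no filter on low counts the test gave an adjusted p of 0.000590 for mHAR123 against hHAR123, 0.549 for cHAR123 and 0.918 for HAR123-KO. The ratio of HAR123-KO to hHAR123 was 0.924 (0.479 to 1.76) and that of cHAR123 0.643 (0.30 to 1.31).

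**Figure D2:**
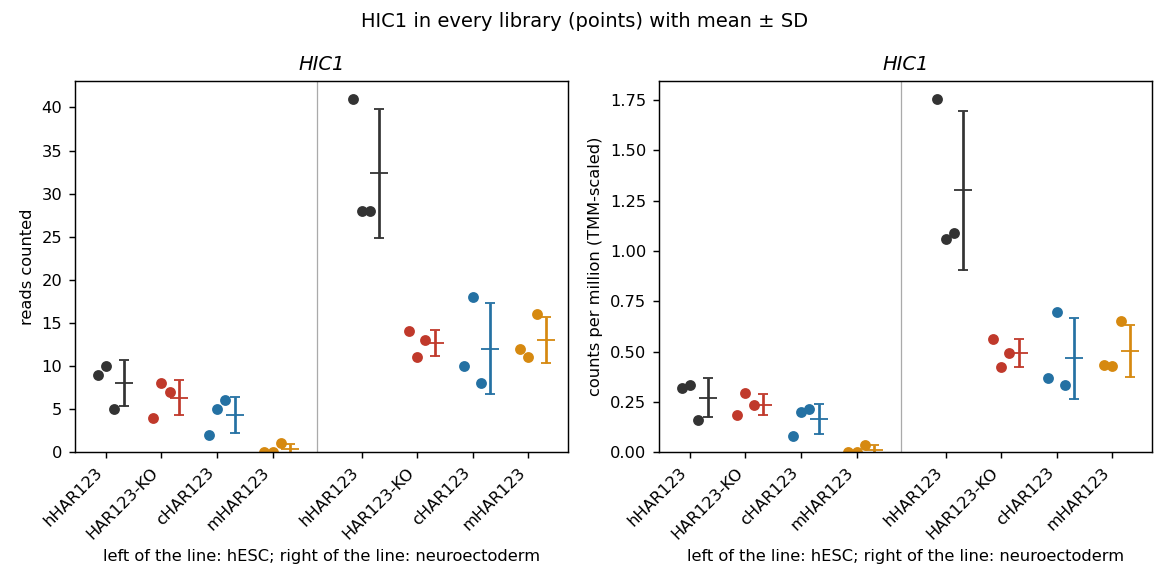
HIC1 in each of the 24 libraries (points, 3 per genotype and stage) as reads counted (left) and as TMM-scaled CPM (right), with the mean and SD beside the points. In neuroectoderm the 3 hHAR123 libraries have 28 to 41 counts and the 9 libraries of the edited genotypes 8 to 18, and in hESCs mHAR123 has 0 to 1.

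HIC1 lies partly within the span of SMG6, on the opposite strand, and 29.8% of the exon bases of HIC1 are also exon bases of SMG6. The libraries were strand-directional, and how strand was treated in counting is not stated in the sources used here. Among genes inside the span of SMG6 that share no exon base with it, the 4 on its own strand had 1264 counts over the 24 libraries and the 7 on the opposite strand had 12. Within the span of RTN4RL1 1 such gene on the same strand had 335 counts and 2 on the opposite strand had 8. Within the span of RPA1 the 1 such gene, ENSG00000108958 on the opposite strand, had 3440 counts. The 3 mHAR123 hESC libraries with 1 HIC1 count in all had 1909 to 2447 counts of SMG6. SRR and TSR1 overlap in the same way, in 35.2% of the exon bases of SRR, and 16.6% of those of DPH1 are shared with OVCA2 on the same strand, which was at 0 counts in all libraries.

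In HAR123-KO neuroectoderm 7 of the 10 members passed an adjusted p of 0.01 against hHAR123, 4 of them higher and 3 lower. Over all 21362 genes tested 44.1% passed, and whether the share among the members differs from that was not tested. The median log2 fold change was 0.02 over the members and 0.00 over all genes, and the median absolute values were 0.28 and 0.27. HIC1 was the only member past an absolute log2 fold change of 1, which 9.45% of genes tested exceeded with an adjusted p under 0.01. In the same cells the neural crest markers were high, as given above.

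The members higher in HAR123-KO neuroectoderm were RTN4RL1, DPH1, SMG6 and MNT. RTN4RL1 (ENSG00000185924, chr17:1934677-2025334, minus strand) was at 17.4, 17.3 and 16.7 CPM in hHAR123 and at 25.5, 25.9 and 25.0 CPM in HAR123-KO, 1.51-fold higher (log2 0.59 ± 0.06, adjusted p = 1.57e-11). DPH1 (ENSG00000108963, chr17:2030137-2043898, plus strand) had 14.9, 15.6 and 16.0 CPM in hHAR123 and 19.9, 20.1 and 20.7 CPM in HAR123-KO (log2 0.41 ± 0.07, adjusted p = 1.25e-06). The groups did not overlap for either gene. SMG6 (ENSG00000070366, chr17:2059839-2303785, minus strand), the host of HAR123, was at 135, 139 and 132 CPM in hHAR123 and at 171, 168 and 158 CPM in HAR123-KO (log2 0.31 ± 0.04). MNT (ENSG00000070444, chr17:2384073-2401104, minus strand) was at 41.1, 44.4 and 43.6 CPM in hHAR123 and at 52.9, 47.2 and 50.1 CPM in HAR123-KO (log2 0.24 ± 0.05, adjusted p = 4.42e-05). Every HAR123-KO library of these 4 members was above every hHAR123 library, and the share of all genes separated so is not given here. DPH1 carries out the first step of making diphthamide, a modified histidine of elongation factor 2.

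The members lower in HAR123-KO neuroectoderm besides HIC1 were PAFAH1B1 and SGSM2. PAFAH1B1 (ENSG00000007168, chr17:2593210-2685615, plus strand) was at 291, 275 and 280 CPM in hHAR123 and at 206, 211 and 209 CPM in HAR123-KO, with a log2 fold change of -0.41 ± 0.03 (adjusted p = 2.03e-16). The HAR123-KO libraries were all lower than the unedited ones and close to each other. SGSM2 (ENSG00000141258, chr17:2337498-2381058, plus strand) was at 83.1, 92.7 and 98.2 CPM and at 85.7, 79.4 and 81.6 CPM, and the groups overlapped. Its log2 fold change of -0.13 ± 0.04 (adjusted p = 0.00895) missed the threshold under DESeq2 and without either of 2 libraries of each genotype. RPA1 (ENSG00000132383, chr17:1829702-1900082, plus strand), SRR (ENSG00000167720, chr17:2303383-2325260, plus strand) and TSR1 (ENSG00000167721, chr17:2322396-2336657, minus strand) had log2 fold changes of -0.09, -0.01 and 0.05 and did not pass.

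**Figure D3:**
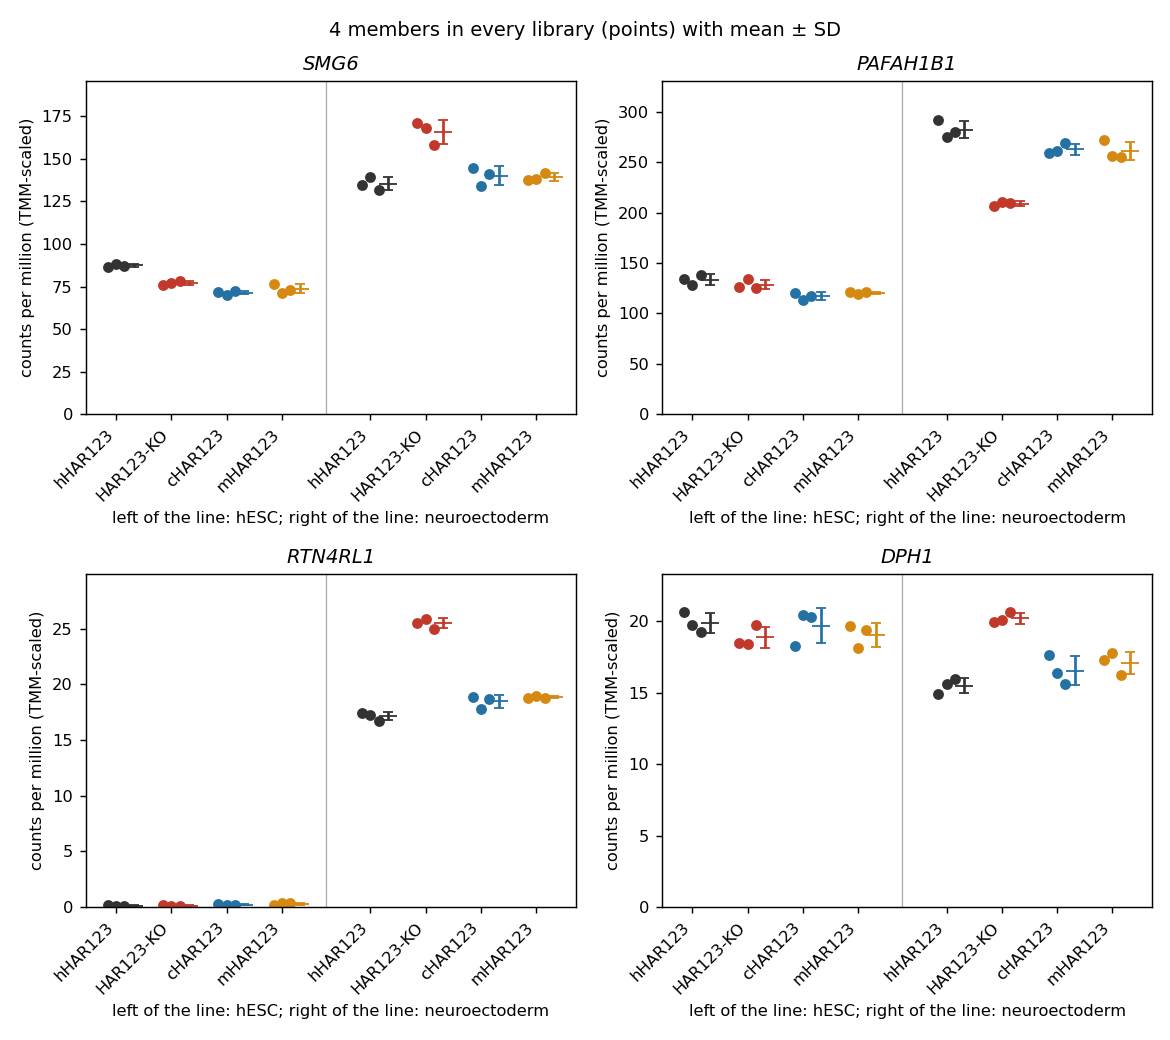
TMM-scaled CPM of SMG6, PAFAH1B1, RTN4RL1 and DPH1 in each of the 24 libraries (points) with the mean and SD, hESCs left and neuroectoderm right of the line in each panel. In neuroectoderm the 3 HAR123-KO libraries of SMG6 lie at 158 to 171 CPM, above the 132 to 139 of hHAR123, and those of PAFAH1B1 at 206 to 211 CPM, below the 275 to 291 of hHAR123.

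In neuroectoderm labelled cHAR123, 2 of the 10 members passed against hHAR123, HIC1 and PAFAH1B1, both lower, where 9.89% of 21275 genes passed. PAFAH1B1 was at 259, 261 and 269 CPM, all below hHAR123 (log2 -0.11 ± 0.03, adjusted p = 0.00813), and missed the threshold in 10 alternatives, with adjusted p of up to 0.0876. In neuroectoderm labelled mHAR123, 2 members passed, HIC1 lower and SGSM2 higher, where 14.0% of 21220 genes passed. SGSM2 was at 102, 107 and 113 CPM in mHAR123 (log2 0.22 ± 0.05, adjusted p = 0.0003), all above hHAR123, and at 102, 102 and 100 CPM in cHAR123 (log2 0.14 ± 0.04, adjusted p = 0.011). PAFAH1B1 in mHAR123 was at 271, 256 and 255 CPM (log2 -0.12 ± 0.03) and just missed the threshold (adjusted p = 0.01004). Its direct comparison between mHAR123 and cHAR123 did not pass (adjusted p = 0.863). SMG6 had log2 fold changes of 0.05 ± 0.03 in cHAR123 and 0.04 ± 0.04 in mHAR123, and RTN4RL1 of 0.10 ± 0.07 and 0.13 ± 0.07, none of which passed. HIC1 was again the only member past an absolute log2 fold change of 1, which with an adjusted p under 0.01 was exceeded by 0.978% of genes in cHAR123 and 1.03% in mHAR123.

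**Figure D4:**
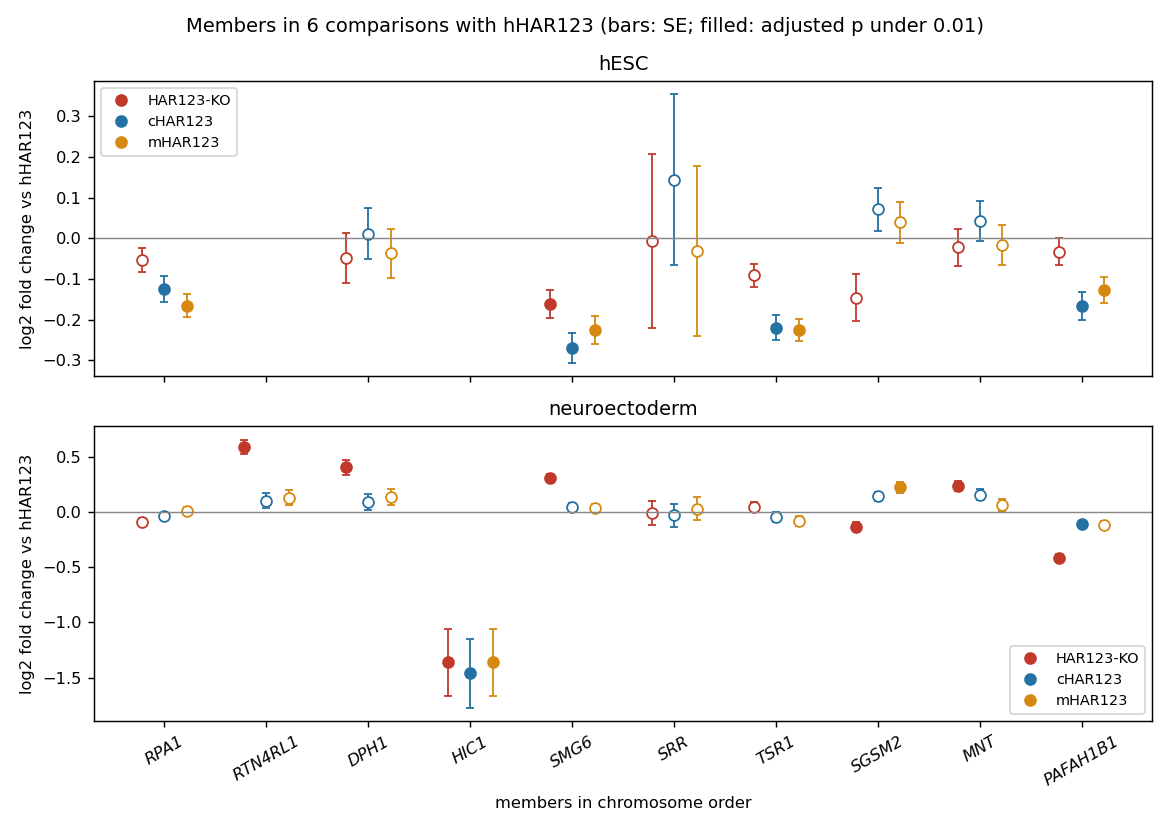
Log2 fold change of each member against hHAR123 in hESCs (top) and neuroectoderm (bottom), with SE bars, for HAR123-KO (red), cHAR123 (blue) and mHAR123 (orange), filled where the adjusted p was under 0.01. The axes of the panels differ: in hESCs every value lies between -0.3 and 0.2, and in neuroectoderm HIC1 lies at -1.46 to -1.36 in all 3 genotypes whereas RTN4RL1, DPH1 and SMG6 are called higher in HAR123-KO alone. HIC1 and RTN4RL1 were not tested in hESCs.

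Against HAR123-KO, the neuroectoderm with an ortholog of HAR123 differed in 5 members in cHAR123 and in 7 in mHAR123, where 39.0% of 21189 and 36.5% of 21138 genes passed. RTN4RL1 was lower than in HAR123-KO in both, with log2 fold changes of -0.47 ± 0.06 (adjusted p = 6.18e-10) and -0.44 ± 0.06 (adjusted p = 2.64e-08). DPH1 was lower by -0.29 ± 0.06 and -0.24 ± 0.06 on the log2 scale, and SMG6 by -0.24 ± 0.03 and -0.25 ± 0.03. PAFAH1B1 was higher, by 0.33 ± 0.02 (adjusted p = 3.72e-19) and 0.32 ± 0.03 (adjusted p = 2.23e-13), and SGSM2 by 0.30 ± 0.03 and 0.38 ± 0.04. In each of these 5 members both ortholog groups lay wholly on one side of the HAR123-KO libraries, which the 2 comparisons share. The share of all genes separated in this way is not given here. RPA1 (0.12 ± 0.03) and MNT (-0.15 ± 0.05) passed in mHAR123 only, and the direct comparison of mHAR123 with cHAR123 did not pass for either (adjusted p = 0.435 and 0.212). The count of 7 in mHAR123 depends on the tool, since under DESeq2 DPH1 (adjusted p = 0.0328) and MNT (adjusted p = 0.0673) missed the threshold. DPH1 also missed it without replicate 3 of HAR123-KO (adjusted p = 0.0127) or of mHAR123 (adjusted p = 0.0165), and MNT without replicate 1 or 3 of HAR123-KO or replicate 1 or 2 of mHAR123 (adjusted p of up to 0.0766). Between mHAR123 and cHAR123, 0 members passed by edgeR or DESeq2, 2 had an unadjusted p under 0.05, and 4.20% of 21108 genes passed. For SMG6 the 95% interval of that difference was -0.07 to 0.05, for PAFAH1B1 -0.07 to 0.04 and for RTN4RL1 -0.10 to 0.15 on the log2 scale.

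In hESCs every member change that passed was downward. The median absolute log2 fold change over the 8 members tested was 0.05 in HAR123-KO, 0.13 in cHAR123 and 0.08 in mHAR123. Over all genes tested it was 0.112, 0.135 and 0.1365. SMG6 passed in all 3 edited genotypes, with 86.6, 88.4 and 87.2 CPM in hHAR123, 75.6, 77.0 and 78.2 in HAR123-KO, 71.7, 70.2 and 72.3 in cHAR123 and 76.6, 71.4 and 73.0 in mHAR123. No edited library reached the unedited ones, and the log2 fold changes were -0.16 ± 0.03 (adjusted p = 0.000475), -0.27 ± 0.04 (adjusted p = 3.67e-07) and -0.23 ± 0.04 (adjusted p = 2.03e-06), with the hHAR123 libraries shared. In HAR123-KO it was the only 1 of the 8 members tested to pass, where 12.4% of 20832 genes passed. In cHAR123 4 of 8 passed and in mHAR123 4 of 8, where 16.3% of 20935 and 19.2% of 21139 genes passed. These were SMG6, RPA1, TSR1 and PAFAH1B1 in both.

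TSR1 was at 186, 186 and 184 CPM in hHAR123 hESCs, at 162, 154 and 154 CPM in cHAR123 and at 154, 158 and 157 CPM in mHAR123. Its log2 fold changes were -0.22 ± 0.03 (adjusted p = 6.95e-07) and -0.23 ± 0.03 (adjusted p = 1.21e-08). The HAR123-KO libraries, at 168, 176 and 170 CPM, lay between, with -0.09 ± 0.03 (adjusted p = 0.018). RPA1 fell by 0.13 ± 0.03 in cHAR123 and by 0.17 ± 0.03 in mHAR123 on the log2 scale, and PAFAH1B1 by 0.17 ± 0.03 and 0.13 ± 0.03. RPA1 in cHAR123 missed the threshold with total counts (adjusted p = 0.0331), with the replicate block (adjusted p = 0.0119) and without replicate 2 or replicate 3 of either genotype (adjusted p = 0.012 to 0.03). PAFAH1B1 in mHAR123 missed it with total counts (adjusted p = 0.041), without the third hHAR123 library (adjusted p = 0.0274) and without the second mHAR123 library (adjusted p = 0.0149). These 4 are the members with the most counts in hESCs, 1644 to 5849 per library. DPH1, SRR, SGSM2 and MNT passed in none of the 3 comparisons, and their log2 fold changes lay between -0.15 and 0.14. RTN4RL1, with 2 to 10 counts per hESC library, was below the filter.

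Differentiation changed most members in every genotype. In hHAR123 8 of 10 passed between neuroectoderm and hESCs, 6 higher and 2 lower, and 6 exceeded an absolute log2 fold change of 1. Over all 22280 genes tested 80.1% passed, and 45.9% also exceeded that fold. RTN4RL1 went from 5, 2 and 4 counts to 407, 457 and 430 (log2 7.08 ± 0.18), with every neuroectoderm library above every hESC library. SRR rose from 1.20 to 1.57 CPM to 6.25 to 7.85 CPM (log2 2.33 ± 0.15), HIC1 by 2.25 ± 0.34, SGSM2 by 1.40 ± 0.05, PAFAH1B1 by 1.08 ± 0.03 and SMG6 by 0.63 ± 0.04 on the log2 scale. TSR1 fell from 184 to 186 CPM to 59.2 to 62.7 CPM (log2 -1.59 ± 0.04), and DPH1 by 0.35 ± 0.07 on the log2 scale. RPA1 and MNT had log2 fold changes of -0.04 and 0.04. The stages differed in composition, and scaling by total counts in place of TMM moved all genes up by 0.29 on the log2 scale in hHAR123, 0.20 in HAR123-KO, 0.21 in cHAR123 and 0.17 in mHAR123. Values are given relative to the TMM scaling, and a change under about that size, such as that of DPH1, depends on it.

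In HAR123-KO 7 members passed between stages, where 79.2% of 21509 genes passed and 41.1% also exceeded the fold. HIC1 had a log2 fold change of 1.04 ± 0.42 (adjusted p = 0.0185) and did not pass, and DPH1 was at 18.4 to 19.7 CPM in hESCs and 19.9 to 20.7 CPM in neuroectoderm (log2 0.12 ± 0.06). In cHAR123 9 of 9 members tested passed, where 78.9% of 22049 genes passed and 42.7% exceeded the fold, with HIC1 below the filter. Of these 9, RPA1 (log2 0.09) missed the threshold under DESeq2 (adjusted p = 0.378), MNT (log2 0.20) under DESeq2 (adjusted p = 0.0579) and DPH1 (log2 -0.23) with total counts (adjusted p = 0.722). Single libraries left out also ended the calls of RPA1 (4 libraries, adjusted p of up to 0.158), MNT (replicate 1 of the hESCs, adjusted p = 0.0233) and DPH1 (replicate 3 of the neuroectoderm, adjusted p = 0.0205). In mHAR123 9 of 10 passed, where 78.6% of 22173 genes passed and 41.9% exceeded the fold, and MNT (log2 0.16) missed the threshold under DESeq2 (adjusted p = 0.155). HIC1 passed there with 1 count in all in hESCs and 39 in neuroectoderm. Members past the fold numbered 5, 5 and 6. RTN4RL1 had log2 fold changes of 7.77 ± 0.17 in HAR123-KO, 6.49 ± 0.17 in cHAR123 and 5.96 ± 0.16 in mHAR123, where its rise cannot be ranked against that of HIC1 from 1 count. In hESCs of these genotypes RTN4RL1 had 9, 16 and 26 counts in all. Exact 95% intervals of the ratio by library totals, covering counting error only, were 138 to 573, 64.9 to 186 and 48.5 to 110. By the interaction test, the edit effect on RTN4RL1 did not differ between stages at the threshold (adjusted p = 0.434, 0.494 and 0.0897). The stage values of cHAR123 and mHAR123 rest on the neuroectoderm labels in doubt.

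Whether the effect of an edit differed between the stages was tested over 12 libraries for each genotype. For HAR123-KO 4 of 10 members passed, SMG6 and PAFAH1B1 with the 2 lowest adjusted p, where 32.5% of 23113 genes passed. The difference of the effect, neuroectoderm minus hESC, was 0.47 ± 0.05 for SMG6 (adjusted p = 2.02e-11), 0.45 ± 0.09 for DPH1, 0.26 ± 0.07 for MNT and -0.38 ± 0.05 for PAFAH1B1 (adjusted p = 8.22e-10) on the log2 scale. The MNT difference missed the threshold with total counts (0.19, adjusted p = 0.0226) and without the first HAR123-KO neuroectoderm library (0.22, adjusted p = 0.0108). SMG6 was lower than hHAR123 in HAR123-KO hESCs and higher in HAR123-KO neuroectoderm. HIC1 had a difference of -1.23 ± 0.59 (adjusted p = 0.0922), so that a different effect on HIC1 at the 2 stages was not shown at 4 to 41 counts per library. Its difference was -0.80 ± 0.67 for cHAR123 (adjusted p = 0.484) and did not pass. For mHAR123 it was 2.71 ± 1.03 (adjusted p = 0.0562), opposite in sign, with 1 hESC count in all, and did not pass either. For cHAR123 2 members passed, SMG6 (0.32 ± 0.05) and TSR1 (0.19 ± 0.05, adjusted p = 0.00872), where 8.71% of 23329 genes passed. For mHAR123 2 passed, SMG6 (0.28 ± 0.05) and RPA1 (0.20 ± 0.05, adjusted p = 0.0011), where 12.8% of 23681 genes passed. With total counts TSR1 in cHAR123 (adjusted p = 0.0907) and RPA1 in mHAR123 (adjusted p = 0.158) missed the threshold. TSR1 in cHAR123 also missed it with the replicate block (adjusted p = 0.0135) and without some single libraries (adjusted p of up to 0.033). With the labels of the 6 neuroectoderm libraries exchanged, SMG6 passed in both (0.33 and 0.29), TSR1 missed in cHAR123 (adjusted p = 0.0225) and passed in mHAR123 (adjusted p = 0.00303), and RPA1 missed in mHAR123 (adjusted p = 0.0187).

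Genes that work with the members were counted in HAR123-KO against hHAR123 neuroectoderm, where 44.1% of all genes passed. Of 10 partners of LIS1 and dynein 7 were higher and 1 lower, with a median log2 fold change of 0.23. The largest were DCX, a microtubule protein of migrating neurons (0.61 ± 0.05), and PAFAH1B3, a catalytic subunit that binds LIS1 (0.38 ± 0.06), both opposite in sign to PAFAH1B1 itself. YWHAE was the 1 that was lower (-0.10 ± 0.03). In cHAR123 2 of the 10 were higher and 0 lower, where 9.89% of all genes passed, and in mHAR123 4 were higher and 1 lower, where 14.0% passed.

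Of 10 genes of the MAX network, in which MNT competes with MYC proteins for MAX, 4 were higher and 4 lower in HAR123-KO neuroectoderm. MYCN was at 70.3 CPM, against 10.7 in hHAR123 (log2 2.74 ± 0.06, adjusted p = 6.11e-39), and MYC at 3.97 against 9.77 CPM (log2 -1.28 ± 0.11). MYCN also rose in cHAR123 (log2 0.62 ± 0.08) and mHAR123 (log2 1.08 ± 0.07), and MYC fell by 0.36 ± 0.09 and 0.35 ± 0.10 on the log2 scale. Of 9 genes listed as HIC1 targets 7 could be tested, of which 1 was higher and 4 lower, with a median log2 fold change of -0.27. EPHA2, an ephrin receptor, was among those that were lower (log2 -1.21 ± 0.06), as were SIRT1 (log2 -0.28), a deacetylase, and CDKN1C (log2 -0.27), a cell cycle inhibitor. CCND1, cyclin D1, was higher (log2 0.47). In cHAR123 neuroectoderm 1 of 7 targets tested was higher and 2 lower (median log2 -0.04), where 9.89% of all genes passed. In mHAR123 1 of 7 was higher and 1 lower (median log2 0.07), where 14.0% passed. Whether the listed targets follow HIC1 was not tested.

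Of 7 genes around the Nogo receptors 5 could be tested and 4 were higher in HAR123-KO neuroectoderm, where 44.1% of all genes passed. NGFR, the p75 neurotrophin receptor and also a marker of neural crest, was at 296 CPM against 39.3 (log2 2.93 ± 0.04), and RTN4R, the Nogo receptor, rose by 0.37 ± 0.08 on the log2 scale. Of 7 genes of the diphthamide pathway 2 were higher and 2 lower, led by DNAJC24 (-0.76 ± 0.06) and DPH2 (0.40 ± 0.08). Of the 3 other RPA subunits RPA3 was lower (-0.25 ± 0.08, adjusted p = 0.00666) and the others did not pass. In cHAR123 neuroectoderm 1 of 5 Nogo receptor genes passed, 2 of 7 diphthamide genes and 0 of 3 RPA subunits, where 9.89% of all genes passed. In mHAR123 neuroectoderm these counts were 3, 2 and 0, where 14.0% passed.

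Among the 38 other genes of the interval, 7 had no count in any library and 11 passed the filter in HAR123-KO against hHAR123 neuroectoderm, of which 2 were lower and 0 higher, where 44.1% of all genes passed. None reached an absolute log2 fold change of 1 in any comparison with hHAR123, so the rule for naming them picked none, and the following were chosen after their values were seen. METTL16, an RNA methyltransferase gene between MNT and PAFAH1B1, had 1677, 1918 and 1922 counts in hHAR123 and 1549, 1602 and 1605 in HAR123-KO neuroectoderm (log2 -0.23 ± 0.04). ENSG00000279432, an unnamed gene inside PAFAH1B1 on the same strand (chr17:2639297-2642418), had 326, 355 and 334 counts in hHAR123 and 231, 225 and 232 in HAR123-KO neuroectoderm. Its log2 fold change was -0.57 ± 0.08 where that of PAFAH1B1 was -0.41. In the ortholog neuroectoderm it was -0.29 ± 0.08 in cHAR123 and -0.39 ± 0.09 in mHAR123.

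The genes whose log2 CPM over the 24 libraries was most like that of each of 2 members were ranked among genes with a mean of at least 1 CPM. For SMG6 they were FBN2, VPS37B, PKNOX2, CCDC167 and CMTM5, with Pearson's r of 0.989 to 0.992. Of the other members SRR had an r with SMG6 of 0.959, RTN4RL1 of 0.957 and TSR1 of -0.941. Among 17450 genes SRR ranked 698 and RTN4RL1 836 by this r. For HIC1 the 5 most alike were LUC7L, ZNF233, TET1, ZFP91 and SCARNA7, with r of 0.880 to 0.913. The member with the highest r was PAFAH1B1 at 0.793, at rank 463 of 17451 genes. The 24 libraries fall into the 2 stages, and the values were not computed within a stage.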

How the data were processed

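The authors depleted ribosomal RNA, prepared directional libraries (NEBNext Ultra II), sequenced paired ends on a NovaSeq, aligned reads to GRCh38 with STAR 2.5.2b and counted reads over exons per gene with featureCounts from Subread. The authors deposited these counts without normalization. An entry broken in the table was left out. Counts were analysed with edgeR 4.0.16 in R 4.3.3. Each pair of groups was fitted alone with filterByExpr, TMM scaling, quasi-likelihood F tests and adjustment after Benjamini and Hochberg over all genes tested. Members passed at an adjusted p under 0.01, and a fold threshold of 1 (absolute log2) is named where used. The SE was taken as the size of the log2 fold change over the root of F, and the 95% intervals are the estimate ± 1.96 SE. CPM and RPKM were computed here from library sizes scaled by TMM over all 24 libraries. Log2 CPM used a prior count of 2. The code was tested on simulated data.

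The members and lists were chosen with earlier results of these data known. All members were described; interval genes were to be named past the fold threshold with a mean of at least 1 CPM, partners as the 2 largest changes that passed per list, and like genes as the top 5. One gene that this rule names is not reported here, and SIRT1, CDKN1C, CCND1 and YWHAE were named after their values were seen. Alternatives were DESeq2 1.42.0, its size factors, total counts, no filter, the replicate number as a block, all libraries in one fit, and leaving out each library. Exchanging the cHAR123 and mHAR123 neuroectoderm labels was added after seeing the data. Same-numbered libraries did not deviate together (r of -0.0232 to 0.0371), so numbers were not taken as pairs. Replicates differed beyond sampling noise (chi-square over its degrees of freedom at least 1.40). Columns of the authors' own comparisons were not used as results; only their base means served the label check.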

Additional observations from a re-analysis of the deposited data

Results flagged for a closer look

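The effect of an edit differed between hESCs and neuroectoderm by the interaction test in 8 cases. These were 4 of 10 members for HAR123-KO, 2 for cHAR123 and 2 for mHAR123. Over all genes tested 32.5%, 8.71% and 12.8% passed, and whether the members differ from these shares was not tested. The difference is given as neuroectoderm minus hESC on the log2 scale. For HAR123-KO it was 0.47 for SMG6, 0.45 for DPH1, 0.26 for MNT and -0.38 for PAFAH1B1, of which that of MNT missed the threshold with total counts (adjusted p = 0.0226). For cHAR123 it was 0.32 for SMG6 and 0.19 for TSR1, and for mHAR123 0.28 for SMG6 and 0.20 for RPA1, with the neuroectoderm labels of both in doubt. With total counts those of TSR1 (adjusted p = 0.0907) and RPA1 (adjusted p = 0.158) also missed the threshold. That of TSR1 missed it with the replicate block too (adjusted p = 0.0135). SMG6 was the member in which all 3 genotypes passed, and the 3 tests share the hHAR123 libraries. Groups of 3 libraries were too small to look for single outlying libraries.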

How the results depend on the processing

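Of 73 member results that passed, 55 kept their call in every alternative run, 18 lost it in at least 1, and none changed direction. HIC1 had no adjusted p from DESeq2 for cHAR123 against hHAR123 neuroectoderm. Members passing in HAR123-KO hESCs numbered 1, or 2 with all 24 libraries in one fit, and 1 to 2 with single libraries left out. In cHAR123 neuroectoderm they numbered 2, 1 with DESeq2 or all 24 libraries in one fit, and 0 to 2 with single libraries left out. In mHAR123 neuroectoderm leaving out single libraries gave 1 to 3. For the difference of the cHAR123 effect between stages they numbered 2, and 1 with total counts, with the replicate block or with exchanged labels, and 1 to 2 with single libraries left out. For that of mHAR123 they numbered 2, 1 with total counts and 4 with no filter, and 2 to 3 with single libraries left out. The cause of these shifts was not tested. The replicate block, which pairs libraries by number only, left 6 of 7 members in HAR123-KO neuroectoderm. Depth limits HIC1 at 0 to 41 counts per library, and RTN4RL1 in hESCs.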
